A study of Oryza sativa with 14 samples.

Results

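IRT1, VIT1.2 and COPT2 are 3 metal transporter genes of rice, 2 for iron and 1 for copper, of 17905 genes measured on the array. They were chosen by their log2 levels in these same arrays, which were already known to differ between groups, so their levels and differences are given as a description, with no test. Each was matched by symbol or synonym in the annotation tables, and each has 1 probe set, a group of probes that together report 1 transcript. The identifiers are LOC4333669 for IRT1, LOC4346978 for VIT1.2 (also named VIT2) and LOC4338846 for COPT2. The reference gene table places IRT1 on chromosome 3, VIT1.2 on chromosome 9 and COPT2 on chromosome 5. The synonym COPT2 also stands beside LOC4324611, which is treated here as COPT3, the name its Os-prefixed symbol bears.

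Rice takes up iron both as ferrous iron, through IRT1 in the plasma membrane of root cells, and as ferric iron bound to phytosiderophores that the root releases and YSL15 brings back in. VIT1.2 lies in the vacuole membrane and moves iron out of the cytosol into the vacuole. COPT2 belongs to the family of small membrane proteins that carry copper into cells. In rice and other plants, IRT1 transcripts are known to rise in iron-starved roots, and copper transporter transcripts are known to answer to copper supply.

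The study hybridized RNA of 14 pools of 6 whole seedlings to the Affymetrix Rice Genome Array, 2 pools for each of 7 groups of Oryza sativa ssp. japonica. The seedlings were 12 days old and had grown in Yoshida's nutrient medium at 28 °C, for 2 days in the dark and then 10 days with a 12 h photoperiod. The unstable mutant is the M1 generation, the plants grown directly from irradiated seed, of cv. Nipponbare given 100 Gy of gamma rays, and the line used was picked for looking most like the control. The unstable transgenic line is the T1 generation of cv. Nipponbare, with 1 copy of the BCBF1 gene behind the AtRD29A promoter of Arabidopsis and 1 copy of hpt II. Both unstable lines were set against unmodified Nipponbare from seed of one self-pollinated panicle. The stable mutant of cv. Estrela A came from gamma-irradiated seed followed by more than 10 generations of selfing, stands about 45 cm shorter when mature and was set against unmodified Estrela A. The stable transgenic line of cv. Bengal is in generation T3, expresses the single-chain antibody ScFvT84.66 and was set against unmodified Bengal. The 2 transgenic lines germinated with 30 mg/L hygromycin B and the other 5 groups without it, so antibiotic and transgene cannot be told apart. Each modified group is labelled as 1 line. As M1 plants, the seedlings of the unstable mutant may differ from each other in their mutations, and differences between seedlings of a pool were not measured. The labels do not say that the 2 pools of a group came from separate sowings, so p-values measure only the spread between these pools.

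The 2 arrays of a group correlated at 0.993 to 0.997 over all probe sets. Because whole seedlings were ground, fewer cells of a type and less RNA per cell cannot be told apart. By symbol or synonym, 14 root marker names matched 10 genes on the array, among them PHT1-4, which was not a written name. Their mean log2 level was 8.09 to 8.19 in the unstable mutant, 10.0 to 10.1 in the unstable transgenic line, and 10.0 to 10.3 in unmodified Nipponbare. It was 8.04 to 8.12 in the stable mutant and 8.26 to 8.36 in its Estrela A control, and 8.12 to 8.40 in the stable transgenic line and 8.28 to 8.30 in its Bengal control. The 10 shoot markers found ranged in mean level from 11.0 to 11.6 over all 14 arrays, and the 12 grain markers from 5.65 to 7.15. A microarray has no level of 0. Among 122 probe sets on which the unstable transgenic line and the Nipponbare control were at least 3 log2 units away from the 8 arrays of the Estrela A and Bengal cultivars, the unstable mutant lay nearer the Nipponbare arrays on 93 and nearer the other cultivars on 29. Of the 100 probe sets higher in the Nipponbare arrays the unstable mutant lay nearer the other cultivars on 18, IRT1 among them, and of the 22 lower ones on 11. Whether the plant material of the unstable mutant differed from Nipponbare was not tested, and this bears on every difference between the unstable mutant and another Nipponbare group.

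IRT1, the ferrous iron uptake transporter, had a log2 level of 5.87 and 5.81 in the unstable mutant, 10.81 and 10.30 in the unstable transgenic line, and 10.88 and 11.25 in unmodified Nipponbare. The unstable mutant was low in both pools, and neither of the other Nipponbare groups overlapped it. Pools did not overlap for 71.5% of all genes against the control and for 76.2% against the transgenic line. In the other cultivars the level was 6.06 and 5.62 in the stable mutant against 5.58 and 5.48 in Estrela A, and 4.98 and 5.50 in the stable transgenic line against 5.58 and 5.56 in Bengal. The 14 arrays thus formed a high set, the 4 arrays of the unstable transgenic line and the Nipponbare control at 10.30 to 11.25, and a low set of 10 arrays at 4.98 to 6.06. The low values lie near the middle of all probe sets on an array (the unstable mutant at percentile 49.7), and the Nipponbare control lay at percentile 95.2. No detection calls were analysed, so whether the low arrays hold IRT1 transcript above background was not tested. The size of every IRT1 difference between the high and the low set is therefore uncertain, as is the direction of differences within the low set.

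VIT1.2, which loads iron into the vacuole, ran the opposite way. Its log2 level was 12.56 and 12.47 in the unstable mutant, 9.94 and 9.92 in the unstable transgenic line, and 10.67 and 10.28 in unmodified Nipponbare. In the other cultivars it was 13.21 and 13.11 in the stable mutant against 12.91 and 12.93 in Estrela A, and 12.83 and 12.73 in the stable transgenic line against 12.57 and 12.77 in Bengal. The same 4 arrays that were high for IRT1 were low for VIT1.2, at 9.92 to 10.67, and the other 10 arrays lay at 12.47 to 13.21. Of the 3 transporter genes it varied least between pools, with a pooled SD within groups of 0.126, against 0.25 for IRT1 and 0.403 for COPT2.

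COPT2, the copper carrier, was split along the same line. Its log2 level was 10.05 and 9.73 in the unstable mutant, 6.05 and 6.65 in the unstable transgenic line, and 5.94 and 6.92 in unmodified Nipponbare. In the other cultivars it was 8.68 and 8.37 in the stable mutant against 9.52 and 8.72 in Estrela A, and 9.32 and 8.99 in the stable transgenic line against 8.67 and 8.65 in Bengal. The 4 low arrays lay at 5.94 to 6.92 and the other 10 at 8.37 to 10.05. Unlike IRT1 and VIT1.2, where the unstable mutant lay within or just beside the range of the other cultivars, COPT2 in the unstable mutant was above every array of every other group.

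**Figure D1:**
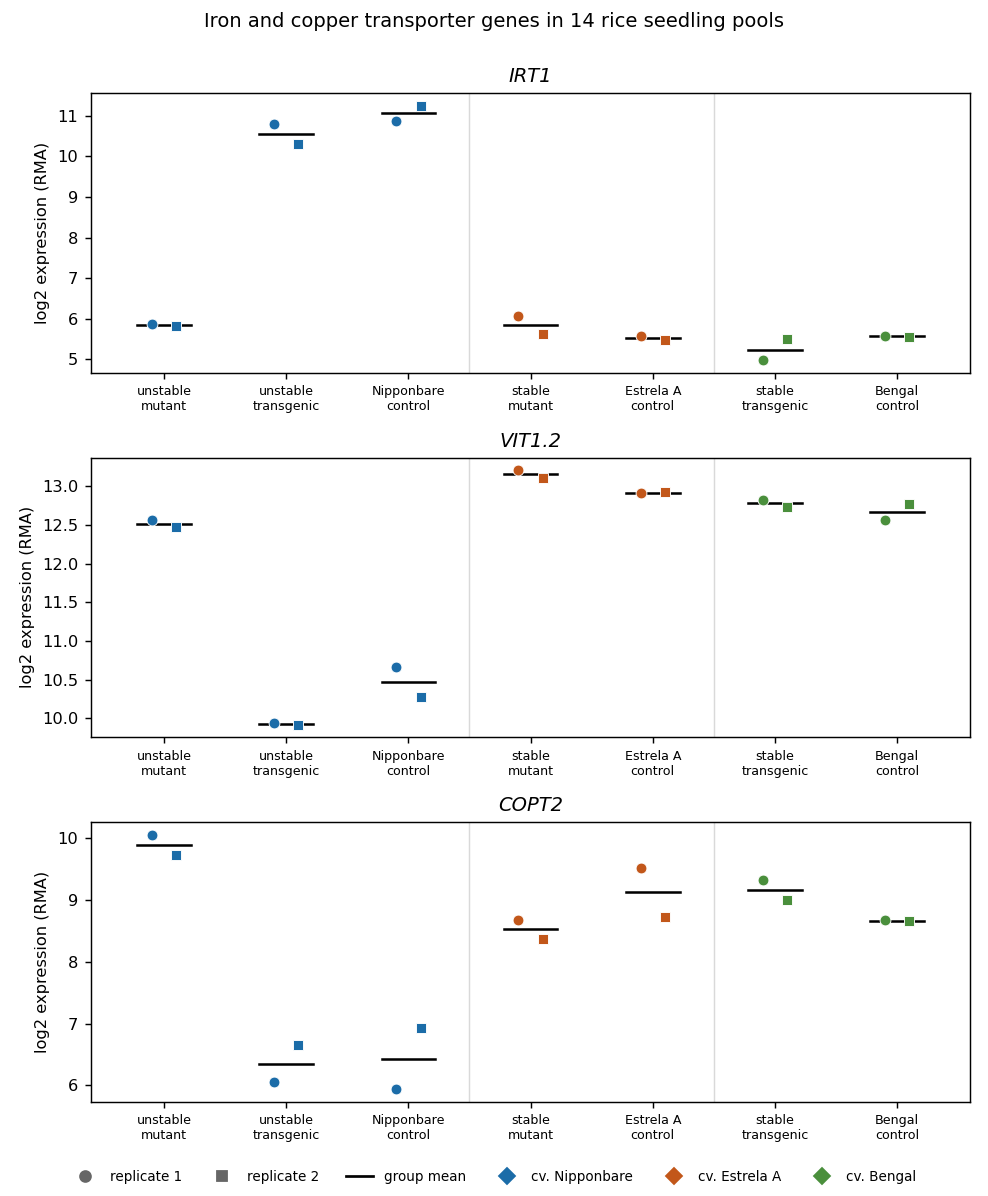
Log2 expression (RMA, y axis) of IRT1, VIT1.2 and COPT2 in each pool of the 7 groups (x axis); symbols are the 2 pools, black bars their mean, colours the cultivar. The unstable transgenic line and the Nipponbare control stand apart from the other 5 groups in each panel, and the unstable mutant lies with or beside the other cultivars for IRT1 and VIT1.2 and above all other arrays for COPT2.

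Ranked by group mean, the order of the IRT1 levels was Nipponbare control, unstable transgenic line, unstable mutant, stable mutant, Bengal, Estrela A and stable transgenic line. Beyond the unstable transgenic line, the gaps between neighbours were at most 0.29, and the pools overlapped in 3 of those 4 pairs. For VIT1.2 the order ran from the stable mutant, Estrela A, stable transgenic line, Bengal and unstable mutant to the Nipponbare control and the unstable transgenic line. The only neighbours whose pools overlapped were the stable transgenic line and Bengal. For COPT2 the order was unstable mutant, stable transgenic line, Estrela A, Bengal, stable mutant, Nipponbare control and unstable transgenic line, with overlap between the stable transgenic line and Estrela A, between Bengal and the stable mutant, and between the Nipponbare control and the unstable transgenic line. Lack of overlap is common with 2 pools per group: it held for 39.3% to 76.2% of all genes in the 8 comparisons given below. The SD of IRT1 over the 14 arrays lay at percentile 99.6 among all genes, that of VIT1.2 at 97.8 and that of COPT2 at 98.2. Across the 14 arrays, which share groups and normalization, Pearson's r was -0.964 between IRT1 and VIT1.2, -0.914 between IRT1 and COPT2 and 0.866 between VIT1.2 and COPT2.

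In the unstable mutant, set against the Nipponbare control, IRT1 averaged 5.84 ± 0.04 against 11.07 ± 0.26 (SD, n = 2 each). The fitted log2 difference was -5.23 with a standard error of 0.21, or 37.4-fold lower. VIT1.2 averaged 12.52 ± 0.06 in the unstable mutant, against 10.48 ± 0.28 in Nipponbare, which makes a log2 difference of 2.04 ± 0.13 (SE) or 4.11-fold. COPT2 averaged 9.89 ± 0.23 in the unstable mutant, against 6.43 ± 0.69 in Nipponbare, and the log2 difference was 3.46 ± 0.32 (SE) or 11.0-fold. For all 3 genes the pools of the mutant and of the control did not overlap, as was so of 71.5% of all genes in this comparison. Root markers moved in the same comparison. Of the 10 markers, 8 fell and 0 rose, where 18.9% of all genes fell and 19.1% rose (limma, adjusted p under 0.05). Among them were the silicon transporters LSI1, which fell by 0.86 on the log2 scale (adjusted p = 0.00296), and LSI2, which fell by 1.63 (adjusted p = 0.000424). The markers moved unequally. NRT2.2 averaged 5.01 in the mutant against 9.61 in the control, NRT2.3 5.44 against 9.24 and PTH1-2 5.875 against 9.55. PHT1-8 averaged 9.54 against 9.96, and PHT1-4 was higher in the mutant, at 8.805 against 8.645. Whether these nutrient transporter genes report root content or nutrient state was not tested. Of the shoot markers 3 rose and 2 fell, and of the grain markers 3 rose and 0 fell. The part of the markers in the transporter result was not tested.

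The unstable transgenic line differed much less from the same control. IRT1 averaged 10.56 ± 0.36 in the transgenic line, against 11.07 ± 0.26 in Nipponbare (SD, n = 2 each), with a log2 difference of -0.51 ± 0.21 (SE). VIT1.2 averaged 9.93 ± 0.01 in the transgenic line and 10.48 ± 0.28 in the control, a difference of -0.55 ± 0.13 (SE). COPT2 averaged 6.35 ± 0.42 in the transgenic line and 6.43 ± 0.69 in the control, a difference of -0.08 ± 0.32 (SE). The pools overlapped for COPT2 and did not for the iron genes, against 60.2% of all genes without overlap. IRT1 and VIT1.2 both lay lower here, whereas in the unstable mutant they lay on opposite sides of the control. Of the 10 root markers 2 rose and 2 fell, of the 10 shoot markers 0 rose and 2 fell, and of the 12 grain markers 0 were called. Among all genes 9.21% rose and 3.92% fell (limma, adjusted p under 0.05). The part of the markers in the result was not tested.

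Set directly against the unstable transgenic line, which has the same cultivar, the unstable mutant had 26.3-fold less IRT1 signal (log2 difference -4.72 ± 0.21, SE), 6.0-fold more VIT1.2 signal (2.59 ± 0.13) and 11.6-fold more COPT2 signal (3.54 ± 0.32). This comparison and the one with the Nipponbare control share the unstable mutant arrays. Of the 10 root markers 8 fell and 0 rose in the mutant, where 27.9% of all genes fell and 22.5% rose. Of the 10 shoot markers 4 rose and 2 fell, and of the 12 grain markers 1 rose and 0 fell, and their part in the result was not tested. The pools did not overlap for any of the 3 genes, which held for 76.2% of all genes.

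The stable lines stayed close to their own controls. In the stable mutant, set against Estrela A, the log2 differences were 0.31 ± 0.21 (SE) for IRT1, 0.24 ± 0.13 for VIT1.2 and -0.60 ± 0.32 for COPT2. No pools overlapped for the 3 genes, as for 44.9% of all genes. In the stable transgenic line, set against Bengal, the differences were -0.33 ± 0.21 for IRT1, 0.11 ± 0.13 for VIT1.2 and 0.50 ± 0.32 for COPT2. The pools overlapped for VIT1.2 alone, with no overlap for 39.3% of all genes. In the stable mutant 0 root, shoot or grain markers were called, against 0.19% of all genes. In the stable transgenic line 1 of 10 shoot markers rose and 1 fell, with 0 root or grain markers called, where 0.168% of all genes rose and 0.0447% fell. The part of the markers was not tested.

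The 3 genes also differed between the unmodified cultivars, with Nipponbare apart from both others. IRT1 was 45.1-fold higher in Nipponbare than in Bengal (log2 difference 5.50 ± 0.21, SE) and 46.4-fold higher than in Estrela A (5.54 ± 0.21). VIT1.2 was lower in Nipponbare by a log2 difference of -2.20 ± 0.13 against Bengal and of -2.45 ± 0.13 against Estrela A. COPT2 was likewise lower in Nipponbare, by -2.23 ± 0.32 against Bengal and -2.69 ± 0.32 against Estrela A. Between Estrela A and Bengal the differences were -0.04 ± 0.21 for IRT1, 0.25 ± 0.13 for VIT1.2 and 0.46 ± 0.32 for COPT2. All 3 genes were thus without overlap between Nipponbare and Bengal, against 73.5% of all genes, and between Nipponbare and Estrela A, against 73.3%, and 2 of the 3 between Estrela A and Bengal, against 60.2%. Cultivar is the only label that differs between these controls. Markers moved as well. In Nipponbare relative to Bengal, 8 of 10 root markers rose and 0 fell, 6 of 10 shoot markers rose and 1 fell, and 1 of 12 grain markers rose and 4 fell, where 16.8% of all genes rose and 22.3% fell. In Nipponbare relative to Estrela A, 9 root markers rose and 1 fell, 4 shoot markers rose and 2 fell, and 1 grain marker rose and 1 fell, where 14.8% of all genes rose and 22.5% fell. In Estrela A relative to Bengal, 1 root marker rose and 0 fell, 5 shoot markers rose and 0 fell, and 1 grain marker rose and 2 fell, where 8.67% of all genes rose and 5.83% fell. Their part in the cultivar differences was not tested.

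**Figure D2:**
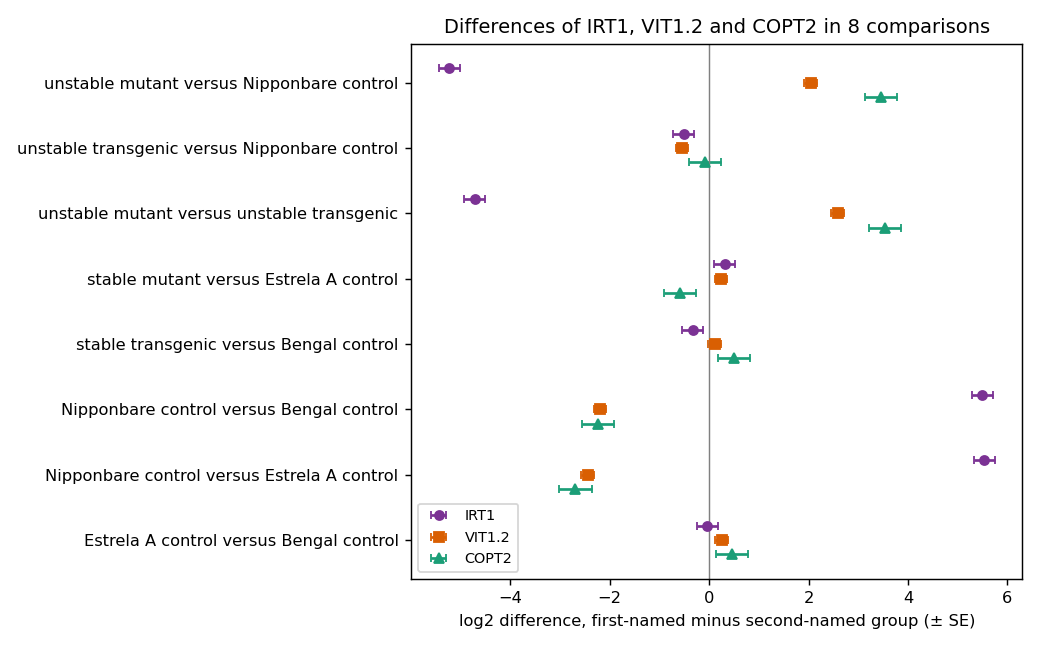
Fitted log2 difference (x axis, first-named minus second-named group, bars ± SE) of IRT1, VIT1.2 and COPT2 in the 8 comparisons (y axis). IRT1 lies opposite to VIT1.2 and COPT2 in the 4 comparisons that set the unstable mutant or the Nipponbare control against a group of the other set, at -5.23 to 5.54, and in the other 4 no difference is farther from 0 than the -0.60 of COPT2 in the stable mutant.

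The other genes of iron, copper and zinc handling were read from 5 lists, which matched 37 genes on the array besides the 3 members, of 84 names written. These genes were tested with limma over all 57194 probe sets and called where the adjusted p (Benjamini-Hochberg) was under 0.05. In the unstable mutant, set against the Nipponbare control, 7 of the 37 rose and 6 fell, while 19.1% of all genes rose and 18.9% fell (38.0% either way). The median log2 difference was 0.08 over the lists and 0.01 over all genes.

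Of the 13 iron uptake and chelation genes, 3 fell and 0 rose in the unstable mutant, where 18.9% of all genes fell and 19.1% rose. TOM1, counted among the 13, was matched by name only and may be another gene of that name. NRAMP5, which carries manganese and cadmium into root cells, had log2 levels of 8.11 and 8.07 in the unstable mutant and 10.59 and 10.60 in the Nipponbare control. It fell by 2.51 on the log2 scale, the 2 groups lying far apart with little spread (adjusted p = 5.38e-07). YSL15, the importer of iron bound to phytosiderophore, had 6.84 and 8.80 in the unstable mutant and 9.56 and 10.19 in the control. It fell by 2.06 (adjusted p = 0.0136), but was not called without replicate 1 of the unstable mutant (0.125) or replicate 2 of the control (0.0722). YSL16, which carries copper bound to nicotianamine, fell by 0.43 (adjusted p = 0.0375) and was not called without either mutant replicate (0.139 and 0.11) or without control replicate 2 (0.205). IRT2, a close relative of IRT1, has 2 genes between it and IRT1 in the reference gene order. Its level was 4.83 and 5.62 in the unstable mutant and 5.31 and 5.25 in the Nipponbare control, and it was called in none of the 8 comparisons, with levels of 4.75 to 5.62 on all 14 arrays. Signal over background was not tested for it either, so these values do not show how IRT2 transcripts varied.

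For iron storage, VIT1.1, the sister of VIT1.2 in the vacuole membrane, was measured. It had 8.03 and 8.10 in the unstable mutant and 8.82 and 8.81 in the Nipponbare control and fell by 0.75 (adjusted p = 0.000221), while VIT1.2 was higher there. Of 2 regulators on the array, IDEF1, a transcription factor of the iron deficiency response, rose by 0.82 (adjusted p = 0.00398), with 9.51 and 8.96 in the unstable mutant and 8.38 and 8.46 in the control. The other, BHLH063, was not called, with a difference of -0.13.

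Among 11 copper genes, 1 rose and 2 fell, where 19.1% of all genes rose and 18.9% fell. COPT1, a relative of COPT2 in the plasma membrane, fell by 1.04 (adjusted p = 0.000131), with 11.81 and 11.95 in the unstable mutant and 12.89 and 12.94 in the Nipponbare control. Its direction was opposite to that of COPT2. HMA5, a copper pump that loads the xylem, fell by 0.82 (adjusted p = 0.00436, and 0.0699 with the 4 arrays of the comparison alone). CCS, the chaperone that hands copper to superoxide dismutase, rose by 0.34 (adjusted p = 0.0218), a call lost without unstable mutant replicate 1 (0.15) or without either control replicate (0.0575 and 0.0847). COPT3 and SPL9, a transcription factor of copper responses, were not called, with differences of 0.08 and 0.27.

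Of 10 zinc and ZIP family genes, 5 rose and 0 fell, where 19.1% of all genes rose and 18.9% fell. IRT1 also belongs to the ZIP family, while MTP1 and HMA2 among the 10 do not. The name ZIP7 stands in this report for LOC4338051, whose synonyms include ZIP3 and OsZIP3, and the name ZIP3 for LOC4336971. The median log2 difference of the 10 was 0.52. ZIP7 had 7.93 and 7.94 in the unstable mutant and 6.38 and 6.68 in the Nipponbare control, a rise of 1.41 (adjusted p = 9.18e-06). ZIP1 rose by 1.08 (adjusted p = 0.00713, and 0.0655 without control replicate 1), ZIP4 by 0.77 (adjusted p = 0.00109) and ZIP2 by 0.73 (adjusted p = 0.00491). The ZIP genes named here and IRT1 thus lay on opposite sides of the control.

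**Figure D3:**
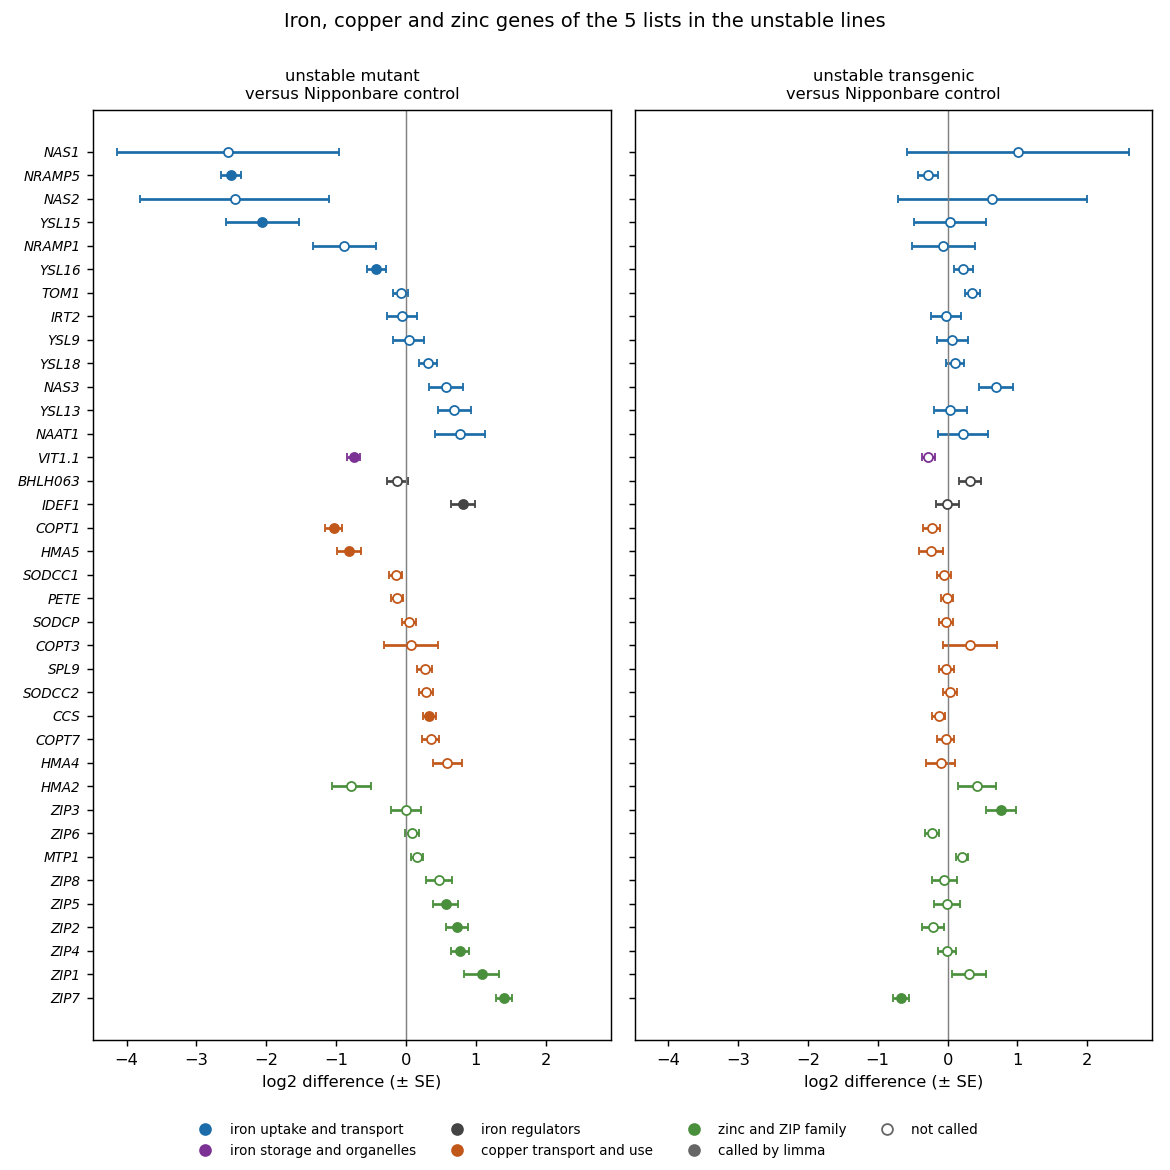
Fitted log2 difference (x axis, bars ± SE) of the 37 list genes (y axis, coloured by list, filled where called) in the unstable mutant (left) and the unstable transgenic line (right), each against the Nipponbare control. In the unstable mutant 13 genes were called, with ZIP genes to the right and NRAMP5 at -2.51, and in the unstable transgenic line 2 were.

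NAS1 and NAS2 make nicotianamine, the chelator from which phytosiderophores are built. They varied between pools of one group in a way that IRT1 did not. NAS1 had 6.65 and 11.76 in the unstable mutant, 13.63 and 11.89 in the unstable transgenic line, and 11.62 and 11.89 in unmodified Nipponbare. One mutant pool was thus as high as the control and the other far lower, while IRT1 was low in both mutant pools (5.87 and 5.81). NAS2 split in the same pools, with 7.94 and 12.34 in the unstable mutant against 12.52 and 12.67 in the Nipponbare control, and so did NRAMP1, an iron transporter, with 5.64 and 7.70 in the mutant against 7.74 and 7.37 in the control. NAS1 also differed between pools of the stable transgenic line (10.43 and 5.54) and of Bengal (8.24 and 10.53). In the stable mutant it was low at 4.87 and 4.74, and in Estrela A at 4.03 and 4.05. NAS1 and NAS2 are neighbours in the reference gene order and near-identical copies, so their probe sets may share signal. Neither was called in the unstable mutant against the Nipponbare control, where the differences were -2.55 ± 1.59 and -2.46 ± 1.35 (SE).

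**Figure D4:**
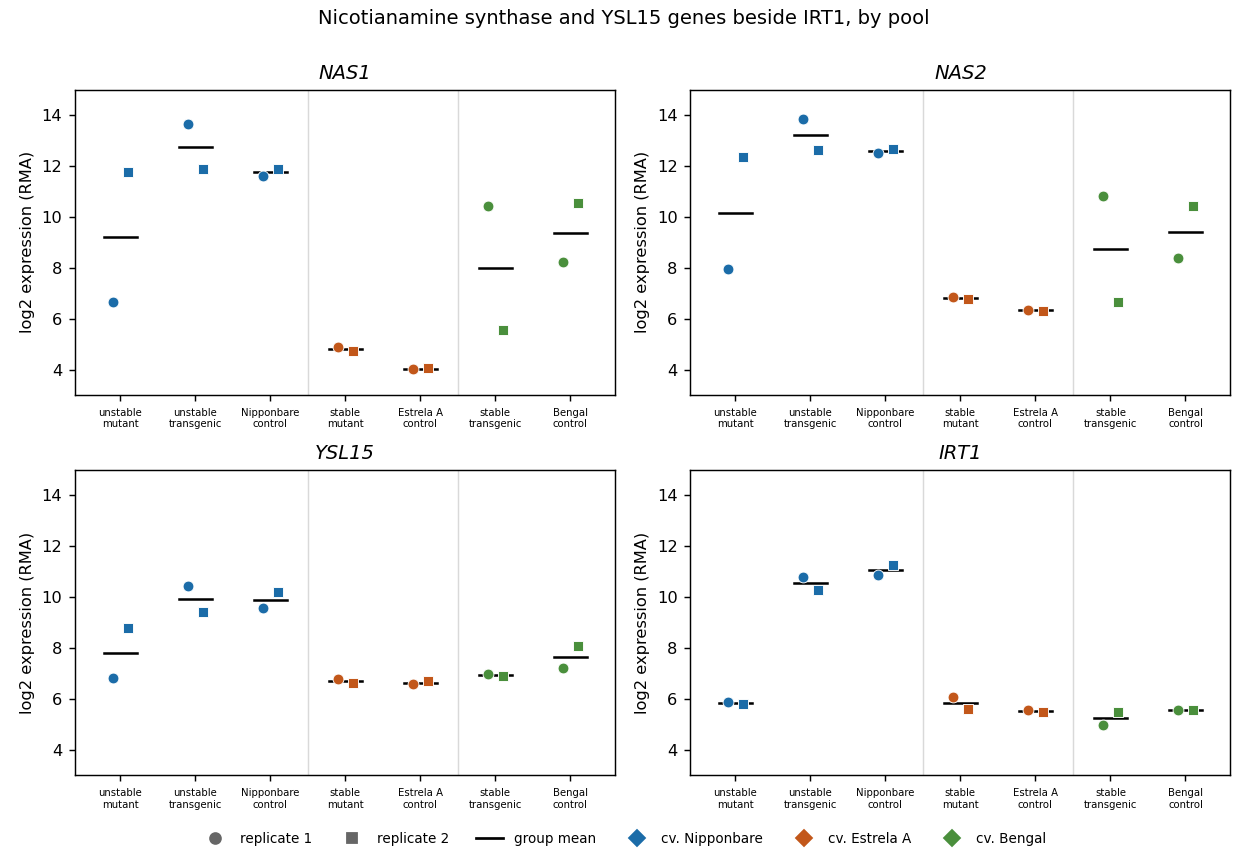
Log2 expression (RMA, y axis) of NAS1, NAS2, YSL15 and IRT1 in each pool of the 7 groups (x axis); symbols are the 2 pools, black bars their mean, colours the cultivar. The 2 unstable mutant pools lie apart for NAS1 (6.65 and 11.76), NAS2 and YSL15, and together for IRT1 (5.87 and 5.81).

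In the unstable transgenic line, set against the Nipponbare control, 1 of the 37 list genes rose and 1 fell, against 9.21% and 3.92% of all genes (13.1% either way). ZIP7 fell by 0.67 (adjusted p = 0.00594, and 0.142 with the 4 arrays of the comparison alone), with 5.93 and 5.79 in the transgenic line and 6.38 and 6.68 in the control. ZIP3 rose by 0.77 (adjusted p = 0.0473), a call lost whichever of the 4 arrays of the comparison was left out (adjusted p 0.114 to 0.189). The list then had 1 call, or 2 without replicate 2 of the control. Iron uptake and copper genes had 0 calls by limma in either direction, with 2 and 0 of them at an unadjusted p under 0.05.

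Between the unstable lines, 10 of the 37 rose in the mutant relative to the transgenic line and 10 fell, against 22.5% and 27.9% of all genes (50.4% either way). TOM1, matched by name only, is among those that fell. Over all probe sets 8979 rose and 7810 fell, but after cyclic loess normalization 7844 rose and 8864 fell. NRAMP5 fell by 2.22 (adjusted p = 9.73e-07) and VIT1.1 by 0.48 (adjusted p = 0.00288), and IDEF1 rose by 0.82 (adjusted p = 0.00262). ZIP7 rose by 2.08 (adjusted p = 3.97e-07) and ZIP2 by 0.94 (adjusted p = 0.000661). HMA2, a zinc pump, fell by 1.21 (adjusted p = 0.00577) and was not called without replicate 2 of the transgenic line (difference -0.97). It had 4.31 and 4.47 in the unstable mutant, at mean percentile 24.3, and 5.36 and 5.83 in the transgenic line. Signal over background was not tested for HMA2, so the size of this difference is uncertain. Over the list the number of calls was 12 without replicate 1 of the transgenic line and 13 without replicate 1 of the mutant.

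In the stable mutant, set against Estrela A, limma called 0 of the 37 list genes, with 3 at an unadjusted p under 0.05 and 1 called with a trended robust prior, against 0.19% of all genes (0.0838% higher and 0.106% lower). That gene was COPT1, with 11.52 and 11.45 in the stable mutant and 12.26 and 12.01 in Estrela A, a difference of -0.65 (adjusted p = 0.0214 with that prior). In the stable transgenic line, set against Bengal, limma called 0 of 37, with 3 at an unadjusted p under 0.05 and 0 with the trended robust prior, against 0.212% of all genes (0.168% higher and 0.0447% lower). VIT1.1 differed by 0.36 in the stable mutant and by 0.17 in the stable transgenic line, neither of them called.

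In the Nipponbare control, set against Bengal, 7 of the 37 rose and 11 fell, against 16.8% and 22.3% of all genes (39.1% either way). Over all probe sets 5528 rose and 7816 fell, and after cyclic loess normalization 6525 rose and 6668 fell. NRAMP5 rose by 2.14 (adjusted p = 6.27e-07), with 10.59 and 10.60 in Nipponbare and 8.38 and 8.53 in Bengal. COPT1 rose by 1.54 (adjusted p = 4.02e-06) and VIT1.1 by 0.76 (adjusted p = 0.000157), each opposite in direction to the member of its own family. Of the 10 zinc and ZIP genes 7 fell and 0 rose, among them ZIP7 by 2.07 (adjusted p = 1.52e-07) and ZIP4 by 1.69 (adjusted p = 2.18e-06). IDEF1 fell by 1.28 (adjusted p = 0.000176). Without replicate 1 of Bengal the list had 11 calls.

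In Nipponbare against Estrela A, 11 of the 37 rose and 9 fell, against 14.8% and 22.5% of all genes (37.2% either way). Over all probe sets 5414 rose and 8462 fell, and after cyclic loess normalization 6622 rose and 6788 fell. NAS1 had 11.62 and 11.89 in Nipponbare and 4.03 and 4.05 in Estrela A, a fitted difference of 7.72 ± 1.59 (SE, adjusted p = 0.00379). Estrela A lay at percentile 16.2 of its arrays and was not tested against background, so the size of this difference is uncertain. NAS2 rose by 6.26 (adjusted p = 0.00508), YSL15 by 3.24 (adjusted p = 0.000731) and NRAMP5 by 1.93 (adjusted p = 1.37e-06). ZIP7 fell by 1.82 (adjusted p = 4.09e-07), one of 7 zinc and ZIP genes that fell while 1 rose. Between Estrela A and Bengal 2 of the 37 rose and 1 fell, against 8.67% and 5.83% of all genes (14.5% either way), and COPT1, which rose by 0.76 in Estrela A (adjusted p = 0.002), was 1 of them.

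The named genes most like each transporter gene were found by Pearson's r over the 14 arrays, among 819 genes with an informative symbol and a range of group means of at least 1 log2 unit. The arrays share groups and normalization, so r is a description. For IRT1 they were the jasmonate repressor gene JAZ2 (0.991), GLU15 (0.986), the nitrate transporter genes NRT2.2 (0.981) and NRT2.3 (0.978) and the acyltransferase gene AT4 (0.974). NRT2.2 and NRT2.3 are also among the root markers above. JAZ2 averaged 3.31 in the unstable mutant, 10.69 in the unstable transgenic line, and 10.61 in unmodified Nipponbare, and between 3.33 and 3.50 in the other 4 groups, so it has the same high and low sets of arrays as IRT1.

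For VIT1.2 the gene most like it was the zinc transporter gene ZIP7 (0.974), which is also a list gene above, followed by OsC3H14 (0.973), DI19 (0.966), the homogentisate dioxygenase gene HGO (0.964) and KPHMT1, a gene of pantothenate synthesis (0.963). ZIP7 averaged 7.94 in the unstable mutant, 5.86 in the unstable transgenic line, and 6.53 in unmodified Nipponbare, and 8.34 to 8.60 in the other 4 groups. For COPT2 the values of r were lower. They were 0.944 for the protein phosphatase gene OsPP2C39, 0.941 for IAA1 of the auxin response, 0.937 for BURP16, 0.934 for BGLU36 and 0.931 for OsbZIP83. BURP16, which also has the widest range of these, averaged 13.78 in the unstable mutant, 9.38 in the unstable transgenic line, and 8.15 in unmodified Nipponbare.

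**Figure D5:**
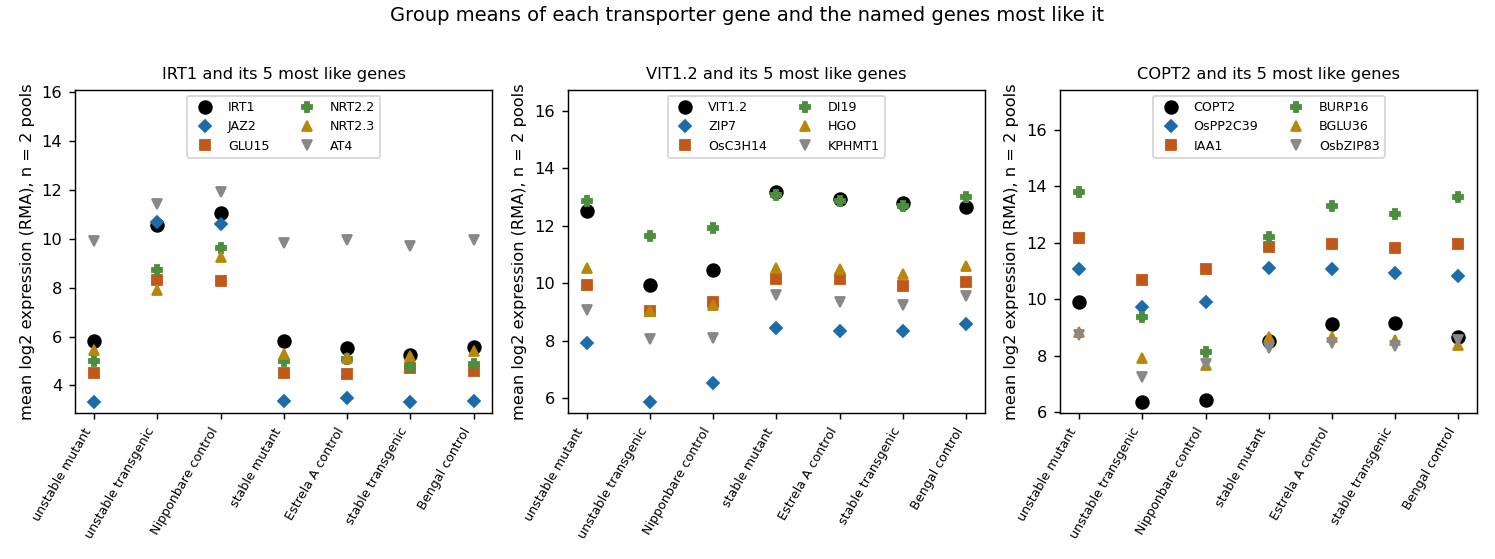
Mean log2 expression (RMA, y axis, 2 pools per group) of IRT1, VIT1.2 and COPT2 (black) and of the 5 named genes most like each over 14 arrays (coloured symbols) in the 7 groups (x axis). Each set keeps the unstable transgenic line and the Nipponbare control apart from the other 5 groups. The genes were chosen for likeness to a member with this split on the same arrays, so the split is not an independent result.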

How the data were processed

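The authors' deposited values are log2 expression. Per the labels' design text, Partek software computed them by Robust Multichip Average (background correction, normalization of all arrays to one distribution, log2, median polish); no source used here gives versions. They were not normalized again, and the medians of the arrays ran from 5.83 to 5.89. Replicate 1 is the array numbered in its title and replicate 2 the unnumbered one.

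Of 57381 probe sets, 187 controls were dropped; 22436 of the other 57194 had 1 gene, 95 several and 34663 none named here. Gene names were looked up in a RefSeq table of assembly ASM3414082v1, whose coordinates are not printed because the array's build is not given. Each gene is its probe set with the highest mean over 14 arrays. Versions were R 4.3.3, limma 3.58.1 and Python with matplotlib for figures. lmFit and eBayes fitted 1 mean per group over all 14 arrays (7 residual and 4.57 prior degrees of freedom), two-sided, Benjamini-Hochberg over all probe sets. Differences between line effects were interaction contrasts, added after the data were seen. The step was tested on simulated data. Named list genes are up to 4 called per list and comparison with the largest difference, or the 2 largest of a list with none called; IRT2, NAS1, NAS2, NRAMP1, COPT3, SPL9 and BHLH063 were, where this rule does not take them, chosen after their values were seen, as were the root markers named. Members and lists were chosen with earlier results of these data known. The alternatives changed the variance moderation, the arrays fitted (only those compared, or all but 1), the probe sets kept (no dim ones, no shared ones), their averaging and the normalization (cyclic loess), or added a replicate block. The replicate numbers did not pair the samples: over 21 pairs of groups, deviations of same-numbered arrays correlated at -0.208 to 0.115.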

Additional observations from a re-analysis of the deposited data

Results flagged for a closer look

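The effect of each unstable line was set against that of the stable line of the same kind by an interaction contrast in limma, in 21 tests of named list genes over the mutant and transgenic lines. The genes tested were named for their differences between an unstable line and Nipponbare on these same arrays, so the tests are not independent of that choice and their p-values are too small. The 6 differences that passed were all between the mutant lines, given here as unstable mutant minus Nipponbare and stable mutant minus Estrela A. NRAMP5 differed by -2.81 on the log2 scale (-2.51 in the unstable mutant and 0.31 in the stable mutant, adjusted p = 8.44e-06). VIT1.1 differed by -1.11 (-0.75 and 0.36, adjusted p = 0.000506), ZIP7 by 1.32 (1.41 and 0.09, adjusted p = 0.000506) and ZIP1 by 1.48 (1.08 and -0.40, adjusted p = 0.0188). ZIP4 differed by 0.83 (0.77 and -0.06, adjusted p = 0.0137) and IDEF1 by 0.87 (0.82 and -0.05, adjusted p = 0.0385). The mutant lines are of different cultivars, and each of these 6 genes was also called between Nipponbare and Estrela A. Line and cultivar cannot be told apart here. For IRT1, every pool of the unstable mutant was below its control and every pool of the stable mutant above its own. Pools did not overlap for 71.5% and 44.9% of all genes in these comparisons. The effects on IRT1 differed by -5.54 (-5.23 and 0.31). IRT1 averaged 5.84 in both mutant lines, and its 2 controls differed by 5.54. The stable mutant (5.62 to 6.06) and Estrela A (5.48 to 5.58) both lay in the low set of IRT1 arrays. Signal over background was not tested there, so the direction of IRT1 in the stable mutant is uncertain. For COPT2 the pools lay the opposite way to those of IRT1, and the effects differed by 4.06 (3.46 and -0.60). VIT1.2 was above the control in both mutant lines, by 2.04 in the unstable mutant and by 0.24 in the stable mutant. The differences between effects on IRT1, VIT1.2 and COPT2 were not tested, because the genes were chosen for their levels. Each group has 2 pools, and each modified group is labelled as 1 line.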

How the results depend on the processing

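Of the differences given for IRT1, VIT1.2 and COPT2, 167 moved by less than the spread between pools under the alternatives and 1 by more. That was VIT1.2 between the unstable lines, at 2.53 after cyclic loess. Leaving out 1 of the 2 arrays of a group cannot move a difference past that spread. Averaging probe sets cannot change it, since each gene has 1, and neither can the replicate block. Only cyclic loess could thus move a value, so these counts do not show stability under the other alternatives. For named list genes, 982 values kept direction and side of the threshold, 79 lost a call, 4 gained one and 0 reversed. The number of list genes called stayed within 1.5 times in the unstable mutant and the stable transgenic line against their controls and between Nipponbare and Estrela A. In the unstable transgenic line, against Nipponbare, it was 0 with the 4 arrays of that comparison alone and 1 to 2 with an array left out. Between the unstable lines it was 12 without variance moderation and 12 to 17 with an array left out. It was 1 in the stable mutant with a trended robust prior, and 11 to 17 for Nipponbare against Bengal with an array left out. For Estrela A against Bengal it was 5 with the trended robust prior and 6 on the 4 arrays alone. With the replicate number as a block, 1 list gene was called in the unstable transgenic line, against 2 without it, and the counts of the other comparisons stayed within 1.5 times. The numbers are not a pairing of the samples. Except where fewer arrays were fitted, the cause of these changes was not tested. A group left with 1 array takes its spread from the rest of the groups. With 2 pools per group the number of arrays limits precision, and signal over background was not tested.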
